A study of Homo sapiens with 32 samples.

Results

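The genes described here form the MYC, MAX and MXD network of transcription factors in clones of 2 human cell lines. They were chosen by name: MYC, MYCL and MYCN, their shared partner MAX, the antagonists MXD1, MXD3, MXD4 and MXI1, and the larger MAX-binding proteins MNT and MGA. All 10 were among the 57820 genes of the HCT116 count tables, and 8 were among the 11887 genes of the HEK293 tables, which do not list MYCL or MYCN. HCT116 is a colorectal cancer line and HEK293 an embryonic kidney line. All clones were expanded from single cells sorted for GFP after transfection with Cas9-GFP. Deletion clones had also received guides against a distal element called E7, 18qNE or 18qE, and control clones the guide vector without an insert. In HCT116, 4 control clones (12 libraries) and 1 E7 clone (3 libraries) gave 1 library per extraction day A, B or C. The 3 18qNE clones gave 1 library each, 2 of day A and 1 of day B. On day D, control clones 1 and 2 and 2 18qE clones gave 1 library each. In HEK293 there were 2 control clones and 2 E7 libraries of day E, and those E7 libraries, numbered 1 and 2, carry a single clone label. E7 lies in the 8q24 region that also holds MYC, and 18qE and 18qNE belong to the 18q21 region of SMAD7, as far as is known of the study. The exact deleted bases were not used here.

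MAX is the hub of this network. A heterodimer of MAX with MYC, MYCL or MYCN binds the E-box sequence CACGTG and activates genes of ribosome production, nucleotide synthesis and cell division. MXD proteins, MXI1 and MNT compete for MAX, bind the same sequence and recruit SIN3 and histone deacetylases, which lower transcription, and MGA brings MAX into a Polycomb complex, PRC1.6. MYC is commonly high in colorectal cancers, where WNT signalling through TCF7L2 and distant 8q24 enhancers drives it, while MXD genes typically rise when cells leave the cycle.

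Depth was 9871667 to 14862268 gene counts in the 18 HCT116 libraries of the first 3 extraction days, 22972412 to 24887785 in the 4 of day D and 26491576 to 34790193 in the 4 of HEK293. Levels are CPM, the count of a gene relative to all gene counts of its library, and are compared between libraries for 1 gene, not between genes, because they are not scaled to length. Tests across all genes used edgeR's quasi-likelihood test with Benjamini-Hochberg adjustment, and "rose" or "fell" stands for an adjusted p below 0.05. Whether libraries of groups overlapped is given only as a description, since the share of all genes that separate was not counted. P-values measure the spread between the samples of a fit. For the HCT116 deletions these are clones, and where E7 was tested there only the 4 control clones supply the spread. The 18qNE clones gave 1 library each of day A or B, with no term for day, so their spread also holds the day. For days and control clones they are single libraries with clone or day as a term, and for HEK293 E7 they include 2 libraries of 1 clone label, whose spread may be technical. The summed level of 13 colorectal epithelial markers, such as EPCAM and KRT8, was 3838 to 6459 CPM in the HCT116 control libraries, against 447 to 731 CPM in the HEK293 controls, where 5 of the 13 are listed. The summed HEK293 markers, such as PAX2 and VIM, ran from 79.9 to 110 CPM in HCT116 controls and from 1206 to 1207 CPM in HEK293 controls.

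**Figure D1:**
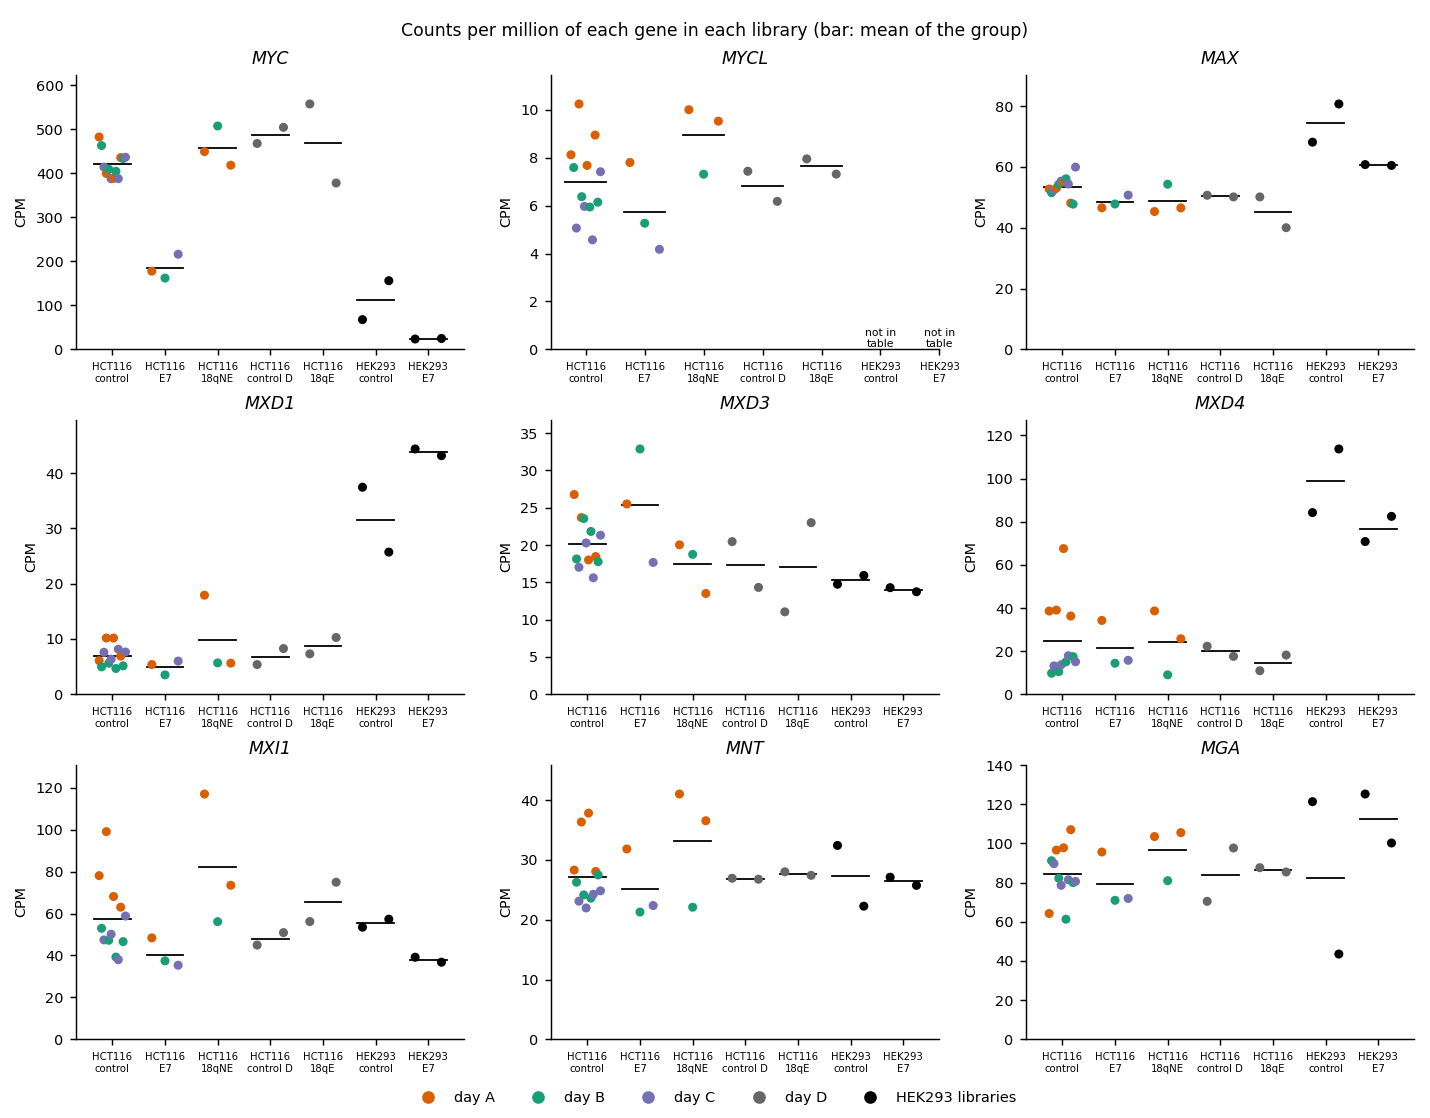
Each panel shows 1 gene, with CPM on the vertical axis from 0, 1 point per library coloured by extraction day, and a bar at the group's mean. MYC in the E7 libraries of both lines lies below every control library of that line, and MXD4, MXI1 and MNT in HCT116 are highest on day A.

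The first comparison asked which genes of the network differed in the HCT116 clone without E7. MYC was at 387 CPM in the lowest of the 12 control libraries, 411 CPM at their median and 482 CPM in the highest. The 3 E7 libraries had 177 CPM on day A, 162 CPM on day B and 216 CPM on day C. All E7 libraries thus lay below all control libraries, by wide margins on each day. Over the clone sums MYC (ENSG00000136997.10, chromosome 8) fell by 1.19 on the log2 scale (SE 0.11, 95% interval -1.44 to -0.94, edgeR adjusted p = 0.000733). It was the only one of 9 tested network genes that passed, where 13.9% of all 17664 tested genes passed and 6.32% fell. With the 18qNE clones as the reference in place of the controls, MYC was at -1.43 and no longer passed (adjusted p = 0.0727).

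MYC lies on a stretch of chromosome 8 whose genes were also lower in this clone. The 30 tested genes nearest to MYC, 15 on each side in RefSeq order, had a median log2 change of -0.64, and 9 of them lay lower than MYC. From CPNE3 to C8orf33, 124 of 243 tested genes fell and 3 rose, with a median of -0.58. No rule fixed the ends of this stretch beforehand, so its counts and median are a description only. In a list of 18 tested genes of the 8q24 neighbourhood 15 fell, among them POU5F1B (log2 change -2.28, at few counts), the SUMO ligase gene NSMCE2 (-1.96), the pseudokinase gene TRIB1 (-1.52) and SQLE of sterol synthesis (-1.35). The median over all tested genes was -0.01. For the other network genes, the medians of the 30 neighbours ranged only from 0.01 (MYCL and MNT) to 0.05 (MXD1 and MXD4). The HCT116 E7 libraries also differed in genes of cell identity. Of 8 tested colorectal markers 1 was higher, the keratin KRT19 (0.36), and 2 were lower, HNF4A (-5.06), a factor of gut epithelium, and CDH1 (-0.73), the epithelial cadherin. The summed level of all 13 markers, at 4247 to 5797 CPM, stayed inside the control range. The summed HEK293 marker list was at 31.3 to 46.0 CPM, below its control range, with 1 higher of 5 tested, VIM (5.09), an intermediate filament of mesenchymal cells, and 2 lower, DPYSL3 (-3.78) and GATA3 (-2.59). Their part in the MYC result was not tested.

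The other MYC paralogs gave little signal in HCT116. MYCL (ENSG00000116990.9, chromosome 1) had 4.57, 6.90 and 10.2 CPM in the lowest, median and highest control library, and 7.81, 5.27 and 4.18 CPM in the E7 libraries of days A, B and C. The groups overlapped over all days, although E7 was below every control of its day on 2 of 3 days. The log2 change was -0.25 (95% interval -0.64 to 0.13, edgeR adjusted p = 0.352). MYCN (ENSG00000134323.10, chromosome 2), the neuroblastoma paralog, had 0 counts among the 323528554 gene counts of the 22 HCT116 libraries. A count of 0 allows up to 3 counts, which is 0.00927 CPM over all of them and 0.121 to 0.304 CPM in a single library, counting error only. MYCN was therefore not tested.

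MAX (ENSG00000125952.14, chromosome 14), the obligate partner of the network, ran from 47.8 to 60.0 CPM over the control libraries with a median of 53.7 CPM. The E7 libraries had 46.6, 47.8 and 50.8 CPM on days A, B and C, the first below every control library and the others inside the range. Within days, E7 was below every control on 2 of 3 days. The log2 change was -0.14 (95% interval -0.33 to 0.06) and did not pass (edgeR adjusted p = 0.336).

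Among the antagonists, MXI1 and MXD1 were lower in the E7 clone within each day, but neither passed the test over clones. MXI1 (ENSG00000119950.16, chromosome 10), a MAX partner that represses E-box genes, had 48.4 CPM in E7 against 63.0 to 99.1 CPM in controls on day A. On day B the values were 37.4 CPM against 39.2 to 52.9 CPM, and on day C 35.3 CPM against 38.0 to 58.8 CPM. E7 was thus below all 4 controls on 3 of 3 days, although its day A library overlapped control libraries of other days. The days sampled the same clones again and are not independent, and how many of all genes did likewise was not counted. The log2 change of MXI1 was -0.50 (SE 0.14, edgeR adjusted p = 0.0592). It passed without control clone 3 (-0.56, adjusted p = 0.0120), without the E7 library of day A (-0.65, adjusted p = 0.0275), with no filter on low counts (-0.49, adjusted p = 0.0309) and with DESeq2 (-0.49, adjusted p = 0.0138). Taking libraries as replicates with the day as a block, which counts 1 clone 3 times, it was also past the threshold at -0.48 (edgeR adjusted p = 0.00925). These were 5 of 15 alternatives, and the other 10 did not pass. The log2 change ran from -0.93 to -0.36 over the alternatives. The fit without the E7 library of day A kept day A in the controls, and MXI1 itself differed between days. With day A left out of both groups MXI1 did not pass.

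MXD1 (ENSG00000059728.6, chromosome 2), the first described MAX dimerization antagonist, gave a similar picture at lower counts. Its E7 libraries had 5.38, 3.51 and 6.01 CPM on days A, B and C. The controls had 6.10 to 10.2 CPM, 4.67 to 5.63 CPM and 6.35 to 8.15 CPM on those days. E7 was below all 4 controls on 3 of 3 days, again in the same clones each day and without a count over all genes. The log2 change was -0.49 (SE 0.19, edgeR adjusted p = 0.135). With the day as a block MXD1 passed at -0.49 (edgeR adjusted p = 0.0242). That fit counts each library of a clone as a replicate, and 5178 genes passed in it, against 2456 in the test over clones. Its call therefore does not measure the spread between clones.

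MXD3 (ENSG00000213347.6, chromosome 5), the MXD gene known for expression in dividing cells, pointed the other way. It had 25.5, 32.9 and 17.7 CPM in the E7 libraries of days A, B and C, against 15.6 to 26.8 CPM in the controls. Only the day B library stood above every control, and the day C library lay among them. The log2 change was 0.36 (SE 0.13, edgeR adjusted p = 0.101), and 0.52 without the E7 library of day C (adjusted p = 0.0328). That fit kept day C in the controls, and with day C left out of both groups MXD3 did not pass. It was the only 1 of 15 alternatives past the threshold, and the other 14 did not pass. The log2 change ran from 0.12 to 0.74 over the alternatives.

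MXD4 (ENSG00000123933.10, chromosome 4), a further MAX-binding repressor, had 34.3, 14.4 and 15.8 CPM in E7 on days A, B and C, inside a control range of 9.77 to 67.5 CPM. The day A controls were the highest of that range, with control clone 3 at its top. The log2 change of MXD4 was -0.19 (95% interval -0.87 to 0.49). MNT (ENSG00000070444.10, chromosome 17), a widely expressed counterpart of MYC, had 31.8, 21.3 and 22.4 CPM in E7 and 21.97 to 37.8 CPM in controls, a log2 change of -0.10 (95% interval -0.34 to 0.15). MGA (ENSG00000174197.12, chromosome 15), the scaffold of PRC1.6, had 95.6, 70.9 and 71.9 CPM in E7 and 61.3 to 107 CPM in controls, a log2 change of -0.05 (95% interval -0.24 to 0.14). None of these groups separated over all days, and E7 was below every control of its day on 1 of 3 days for each gene. The edgeR adjusted p of the genes was 0.718, 0.603 and 0.726.

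**Figure D2:**
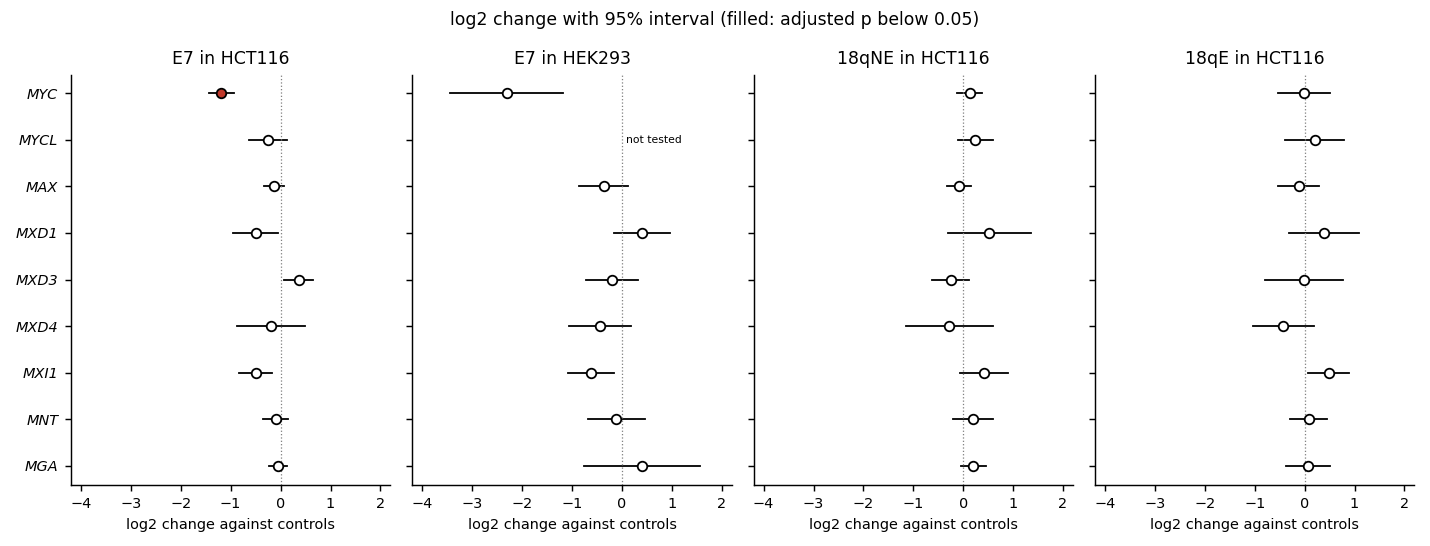
Points give the log2 change of each network gene against its controls on the horizontal axis, with 95% intervals, for the 4 deletion comparisons; filled points passed an adjusted p of 0.05. Only MYC in HCT116 E7 is filled, at -1.19, and the interval of MYC in HEK293 E7 runs from -3.44 to -1.17.

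The wider network was described in the same HCT116 comparison through lists of partners and targets. Of 35 tested MYC-induced targets 10 fell and none rose, with a median of -0.14. NOLC1 and FBL, nucleolar proteins of ribosomal RNA processing, had log2 changes of -0.76 and -0.50, NOP16, of ribosome assembly, -0.41 and TFAP4, a transcription factor, -0.40. Of 11 genes listed as repressed by MYC, 3 rose and none fell: THBS1, a matrix protein that restrains vessel growth, by 1.77, ITGA6, an integrin, by 1.73 and CDKN1B, the cell cycle inhibitor p27, by 0.61. The median of that list was nevertheless -0.07. The shares over all genes were 7.58% higher and 6.32% lower. Among 7 partners around the network, MLX, a MAX-like hub of a parallel network, rose by 0.81 and MLXIP, its glucose-sensing partner, fell by 0.34, while the SIN3 and HDAC genes did not pass. With edgeR, 0 genes passed among 17 MYC cofactors (3 at an unadjusted p under 0.05, 0 by DESeq2), 14 genes of MYC protein turnover (2 and 1), 9 partners of MGA (0 and 0) and 10 regulators of MYC transcription (2 and 1).

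The same deletion was examined in HEK293, where the 2 control libraries stood apart from each other. The SD of their log2 difference over genes was 0.6003, against 0.189 for the 2 E7 libraries and at most 0.573 for any pair within an HCT116 group, so the change of each gene is also given without either control. In such a fit the control group is 1 library, assumed to vary like the E7 libraries, and the spread comes only from those 2 libraries of 1 clone label. Calls in these fits therefore do not measure the spread between clones. In edgeR 3 of 11806 genes passed (0.0254%, with 1487 at an unadjusted p under 0.05 and 454 by DESeq2). None of the 8 network genes tested was among them, 2 were at an unadjusted p under 0.05, and 1 passed by DESeq2. Without control library 1, 6 of the 8 passed where 52.5% of all genes did, and without control library 2, 2 passed where 16.2% did. The summed colorectal markers were also higher in the E7 libraries, at 1018 to 1163 CPM against 447 to 731 CPM (5 listed), and NEFM, a neurofilament gene, rose by 5.54. Their part in the results was not tested.

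MYC in HEK293 had 67.4 and 156 CPM in the control libraries and 23.3 and 24.5 CPM in the E7 libraries. Both E7 libraries lay well below both controls, and the controls differed by more than the E7 libraries did. The log2 change was -2.31 (SE 0.45, edgeR adjusted p = 0.222). It was -2.82 without control 1 (adjusted p = 1.5e-05) and -1.52 without control 2 (adjusted p = 0.000788), and -2.30 with DESeq2 (adjusted p = 5.24e-06). Of 8 alternatives, 7 put MYC past the threshold, among them the 2 with a single control, and the fit with no filter on low counts did not. The 30 nearest tested genes had a median of -0.49 with none lower than MYC, and the 162 tested genes of the chromosome 8 stretch a median of -0.30. MYC thus differed from the median of that stretch by a log2 difference of -2.004 in HEK293 and of -0.61 in HCT116. This too is a description, since no rule fixed the ends of the stretch.

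MXI1 was lower in HEK293 E7 as well, at 39.2 and 36.8 CPM against 53.5 and 57.3 CPM. Its log2 change was -0.61 (SE 0.18, edgeR adjusted p = 0.297), -0.71 without control 1 (adjusted p = 0.00239) and -0.52 without control 2 (adjusted p = 0.0253). The change differed between the lines by -0.10 (95% interval -0.60 to 0.40). MAX had 60.8 and 60.5 CPM in E7 against 68.2 and 80.7 CPM, a log2 change of -0.37 (SE 0.20, 95% interval -0.86 to 0.13), -0.53 without control 1 (edgeR adjusted p = 0.00575) and -0.20 without control 2 (adjusted p = 0.292).

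MXD1 was the antagonist whose E7 libraries lay above both HEK293 controls. It had 44.4 and 43.1 CPM in E7 against 37.4 and 25.7 CPM, a log2 change of 0.41 (SE 0.22, edgeR adjusted p = 0.501). The change was 0.65 without control 1 and 0.20 without control 2. MXD4 had 70.8 and 82.5 CPM against 84.2 and 114 CPM, a log2 change of -0.44 (SE 0.24, edgeR adjusted p = 0.507). Without control 1 the MXD4 change was -0.68, and without control 2 it was -0.17. The sizes of both genes thus depended on the control library. MXD3 had 14.3 and 13.7 CPM against 14.8 and 15.9 CPM. MXD3 was thus only slightly below its controls, at a log2 change of -0.20 (SE 0.20), with -0.30 without control 1 and -0.10 without control 2.

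MNT had 27.1 and 25.7 CPM in HEK293 E7, between controls of 32.4 and 22.3 CPM, and its log2 change of -0.11 was 0.13 without control 1 and -0.32 without control 2, neither past the threshold. MGA had 121 and 43.5 CPM in the controls, far apart, and 125 and 100.2 CPM in E7. Its log2 change of 0.40 (95% interval -0.76 to 1.56) became 1.26 without control 1 (edgeR adjusted p = 0.000778) and -0.14 without control 2 (adjusted p = 0.591). The direction of MNT and MGA therefore rested on which control library was used.

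The difference of the E7 change between the lines was tested in 1 model. Over all genes 3.38% of 11849 passed, and 0 of 8 network genes did with edgeR (2 at an unadjusted p under 0.05, 1 by DESeq2). MXD1 had the smallest p, with a HEK293 minus HCT116 difference of 0.92 (SE 0.29, edgeR adjusted p = 0.140, DESeq2 adjusted p = 0.0447). MYC differed by -1.10 (95% interval -2.22 to 0.02, edgeR adjusted p = 0.272) and MXD3 by -0.54 (adjusted p = 0.210). Without HEK293 control 1 the differences passed for 5 genes, where 39.7% of all genes passed, and without control 2 for none, where 17.6% did. MYC differed by -1.61 and -0.31 in these fits and MXD1 by 1.17 and 0.71. In the HEK293 test none of 36 MYC-induced targets passed with edgeR (4 at an unadjusted p under 0.05, 1 by DESeq2), with a median of -0.33. None of 9 MYC-repressed targets passed either (3 and 1), with a median of 0.13.

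The deletions at 18q21 were compared next. For 18qNE no gene of 15524 passed (0%, edgeR; 505 at an unadjusted p under 0.05, 13 by DESeq2), and none of 9 network genes did (0 at an unadjusted p under 0.05, 0 by DESeq2). MYC had 449, 507 and 418 CPM in 18qNE clones 1, 2 and 3, the second above every control library of days A to C and the others among them. Its log2 change against the control clones of days A and B was 0.13 (95% interval -0.12 to 0.37). Clone 1, of day A, was the highest of the 3 for each antagonist and MNT: MXD1 had 17.9, 5.68 and 5.63 CPM in clones 1, 2 and 3, MXI1 117, 56.1 and 73.5 CPM, and MNT 41.0, 22.1 and 36.6 CPM. The MXD1 and MXI1 levels of clone 1 were above those of all 12 control libraries. The log2 changes were 0.53 (SE 0.38) for MXD1, 0.42 (SE 0.22) for MXI1 and 0.20 (SE 0.18) for MNT. These genes also differed by day among controls, and this fit mixes day with clone. With the day A libraries alone no gene passed either. MXD4 had 38.7 and 25.7 CPM in the day A clones and 9.02 CPM in the day B clone, an order by day that the controls shared (38.6, 39.0, 67.5 and 36.3 CPM on day A, at most 17.4 CPM on day B).

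For 18qE no gene of 15261 passed either (0%, edgeR; 391 at an unadjusted p under 0.05, 18 by DESeq2), and 0 of 9 network genes did (1 at an unadjusted p under 0.05, 0 by DESeq2). MYC had 557 and 378 CPM in the 2 clones, on either side of the day D controls at 468 and 504 CPM. The log2 change was -0.01 with a 95% interval from -0.53 to 0.50, so with 2 clones a change of that size in either direction remained possible. MXI1, at 56.2 and 74.9 CPM, lay above both controls, at 45.0 and 50.9 CPM, with a log2 change of 0.48 (SE 0.17, edgeR adjusted p = 1.00). MAX, at 50.1 and 40.0 CPM, had 1 clone level with the lower control and 1 below both, at 50.7 and 50.1 CPM (log2 change -0.12, SE 0.18). MXD3 also spread widely within both groups, at 11.1 and 23.0 CPM against 20.5 and 14.3 CPM. The median change of 35 MYC-induced targets was 0.03 for 18qE and 0.01 for 18qNE, and none passed in either comparison with edgeR (0 at an unadjusted p under 0.05, 0 by DESeq2).

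The control clones of the 2 lines differed in 4 of 8 network genes, in a comparison in which 57.0% of 11805 genes passed. For this comparison CPM was taken over the genes that both kinds of table list. MYC had 400.1 to 500 CPM in HCT116 controls and 67.4 and 156 CPM in HEK293 controls, and fell by 2.13 (SE 0.35, edgeR adjusted p = 0.00172). MXD1 had 4.81 to 10.6 CPM against 37.4 and 25.7 CPM, and rose by 1.94 (SE 0.17, edgeR adjusted p = 0.000109). MXD4 had 10.1 to 70.3 CPM against 84.2 and 114 CPM, and rose by 1.74 (SE 0.26, edgeR adjusted p = 0.00108). The libraries of the lines did not overlap for these genes. MXD3, at 16.1 to 27.8 CPM against 14.8 and 15.9 CPM, fell by 0.64 (SE 0.14, edgeR adjusted p = 0.00606). The gap between these libraries was narrow, and with CPM over all gene counts of a library the lines overlapped. With the day D libraries as the reference MXD3 was at -0.46 (adjusted p = 0.252). The lower day D control, at 14.8 CPM, was level with the lower HEK293 control.

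The remaining genes did not pass between the lines. MAX was at 0.25 (SE 0.12), with both HEK293 controls above every HCT116 control, MXI1 at -0.30 (SE 0.14) and MNT at -0.25 (SE 0.15). MGA was at -0.28 (SE 0.33), at -1.14 without HEK293 control 1 and at 0.25 without control 2, both past the threshold. Without control 1, 7 of the 8 genes passed, where 73.2% of all genes did, with MAX at 0.41 and MNT at -0.49. Without control 2, MAX was at 0.07 and MNT at -0.04, neither past the threshold, and MXI1 passed at -0.40, where 71.3% of all genes did. In both fits the spread came from the HCT116 clones alone. Among all 7 groups, MYC was lowest in HEK293 E7, then in HEK293 controls and then in HCT116 E7, with no overlap between neighbours in that order. The HCT116 controls, 18qNE, day D and 18qE libraries came above, and their ranges overlapped. Of 36 MYC-induced targets, 20 fell and 4 rose from HCT116 to HEK293 (median -0.50), where 26.0% of all genes fell and 31.1% rose. The log2 change was -1.62 for TFRC, the transferrin receptor, -1.58 for IMPDH2, of guanine nucleotide synthesis, and 1.21 for FBL. CCND2, a cyclin, rose from at most 6 counts in an HCT116 control library to 2031 and 3556 counts in the HEK293 controls. Of 11 regulators of MYC transcription 3 rose and 4 fell. TCF7L2, the WNT effector that binds 8q24 enhancers, fell by 2.94, MAZ, a zinc finger factor of the MYC promoter, rose by 1.41 and E2F1, a cell cycle factor, by 0.89. LEF1, another WNT effector, had 0 counts in 12 of 12 HCT116 control libraries and 1160 and 1062 in the HEK293 controls. Line and extraction day cannot be told apart here.

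Among the antagonists in HCT116, MXD1, MXD4, MXI1 and MNT differed by the day of extraction, and MXD3 did not pass. All 4 control clones were sampled on each of these days, and with the clone as a term 38.2% of 14988 genes differed between days, with 5 of 9 network genes among them (MYCL, MXD1, MXD4, MXI1 and MNT). Without control clone 2 or without control clone 3, 2 of the 9 passed in each case, MXD4 and MXI1 both times, and the counts over all genes were 2228 and 3593.

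MXD4 moved most. On day A, control clones 1 to 4 had 38.6, 39.0, 67.5 and 36.3 CPM. On day B they had 9.77, 10.5, 15.03 and 17.4 CPM, and on day C 13.2, 13.7, 17.9 and 15.1 CPM. Every clone was highest on day A, and days B and C overlapped. MXD4 fell by 1.72 from day A to B (SE 0.14, edgeR adjusted p = 5.04e-06) and by 1.54 from A to C (SE 0.14, adjusted p = 2.36e-05). None of its 30 nearest tested genes lay lower than MXD4 on day B, and their median was 0.14. The libraries with deletions had the same order: over all groups, 7 libraries of day A had 25.7 to 67.5 CPM and 11 libraries of days B and C 9.02 to 17.9 CPM, without overlap.

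RefSeq promoter windows, from 250 bases before a start site to 50 after it, were found for 9 of the 10 genes, all but MYC, with 14 windows in all. They were searched for CACGTG, which reads the same on both strands. It occurred in the windows of MXD4 and MNT, 1 time each, and in 7.26% of all 35116 windows of the table. The 250 bases upstream of both start sites are shown because these genes fell after day A and, of the 9 searched, they alone held the motif, which is in capitals.
MXD4 (GRCh38.p14, minus strand, chr4:2262110-2262359): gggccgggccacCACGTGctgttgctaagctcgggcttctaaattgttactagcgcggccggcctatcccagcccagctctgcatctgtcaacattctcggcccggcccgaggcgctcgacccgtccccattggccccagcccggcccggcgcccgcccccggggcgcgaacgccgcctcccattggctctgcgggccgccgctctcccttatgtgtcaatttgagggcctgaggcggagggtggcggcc
MNT (GRCh38.p14, minus strand, chr17:2401061-2401310): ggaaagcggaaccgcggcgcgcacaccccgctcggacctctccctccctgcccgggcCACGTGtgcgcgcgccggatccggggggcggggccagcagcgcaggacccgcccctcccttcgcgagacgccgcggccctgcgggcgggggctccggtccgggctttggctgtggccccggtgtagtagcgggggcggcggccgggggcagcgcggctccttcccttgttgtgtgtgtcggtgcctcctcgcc
The motif begins 238 bases before the MXD4 start site and 193 bases before that of MNT. A match is a description of the letters and shows no binding. MXI1, MXD1 and MYCL, the other genes that differed between days, had no such match in these windows.

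MXI1 and MXD1 also fell after day A. MXI1 had 78.1, 99.1, 68.1 and 63.0 CPM in control clones 1 to 4 on day A, 52.9, 47.2, 39.2 and 46.6 CPM on day B and 47.4, 50.1, 38.0 and 58.8 CPM on day C. Each clone was highest on day A. MXI1 fell by 0.67 to day B (SE 0.11, edgeR adjusted p = 0.00044) and by 0.62 to day C (SE 0.11, adjusted p = 0.00108). MXD1 had 6.10, 10.2, 10.2 and 6.90 CPM on day A and 4.96, 5.63, 4.67 and 5.15 CPM on day B, lower in 4 of 4 clones. It fell by 0.64 (SE 0.16, edgeR adjusted p = 0.00577), an adjusted p that was 0.0505 without clone 3. On day C it was back at 7.60, 6.35, 8.15 and 7.65 CPM, with a change from day A of -0.12 (95% interval -0.45 to 0.21).

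MNT had 28.3, 36.3, 37.8 and 28.1 CPM in control clones 1 to 4 on day A, 26.3, 24.1, 23.6 and 27.5 CPM on day B and 23.1, 21.97, 24.3 and 24.8 CPM on day C. It fell by 0.31 to day B (edgeR adjusted p = 0.0272) and by 0.43 to day C (adjusted p = 0.00591), lower in 4 of 4 clones each time. The day B call was lost without clone 2 or clone 3 (-0.24 and -0.22), and the day C call without clone 2 (-0.35). MYCL, an activator by family, moved with these repressors: it averaged 8.75 CPM on day A (SD 1.13, n = 4 clones), 6.52 CPM on day B (SD 0.74) and 5.76 CPM on day C (SD 1.25). It fell by 0.37 to day B (edgeR adjusted p = 0.0488) and by 0.56 to day C (adjusted p = 0.00883). The day B call was lost in 5 of its 6 alternatives, and the day C call without clone 2 (-0.51, adjusted p = 0.0877). Over all groups, day A libraries did not overlap those of days B and C for MYCL (7.68 to 10.2 against 4.18 to 7.60 CPM) or MNT (28.1 to 41.0 against 21.3 to 27.5 CPM).

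MYC, MAX, MXD3 and MGA did not pass between days. MYC averaged 426 CPM on day A (SD 42.4, n = 4 clones), 427 CPM on day B (SD 26.7) and 406 CPM on day C (SD 23.5). The change of MYC from A to B was 0.06 with a 95% interval of -0.08 to 0.20, and from A to C -0.03 (-0.17 to 0.12). MGA passed only when clone 1 was left out (-0.37 to day B, adjusted p = 0.00258, and -0.27 to day C), since clone 1 had 64.2 CPM on day A and the other clones 96.6 to 107 CPM. In the pairs of days, 5 of 9 network genes fell from A to B, where 19.4% of all genes fell, and 4 of 9 from A to C, where 16.6% did. Between days B and C 0.0334% of genes passed and 0 of 9 network genes did with edgeR (1 at an unadjusted p under 0.05, 0 by DESeq2).

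**Figure D3:**
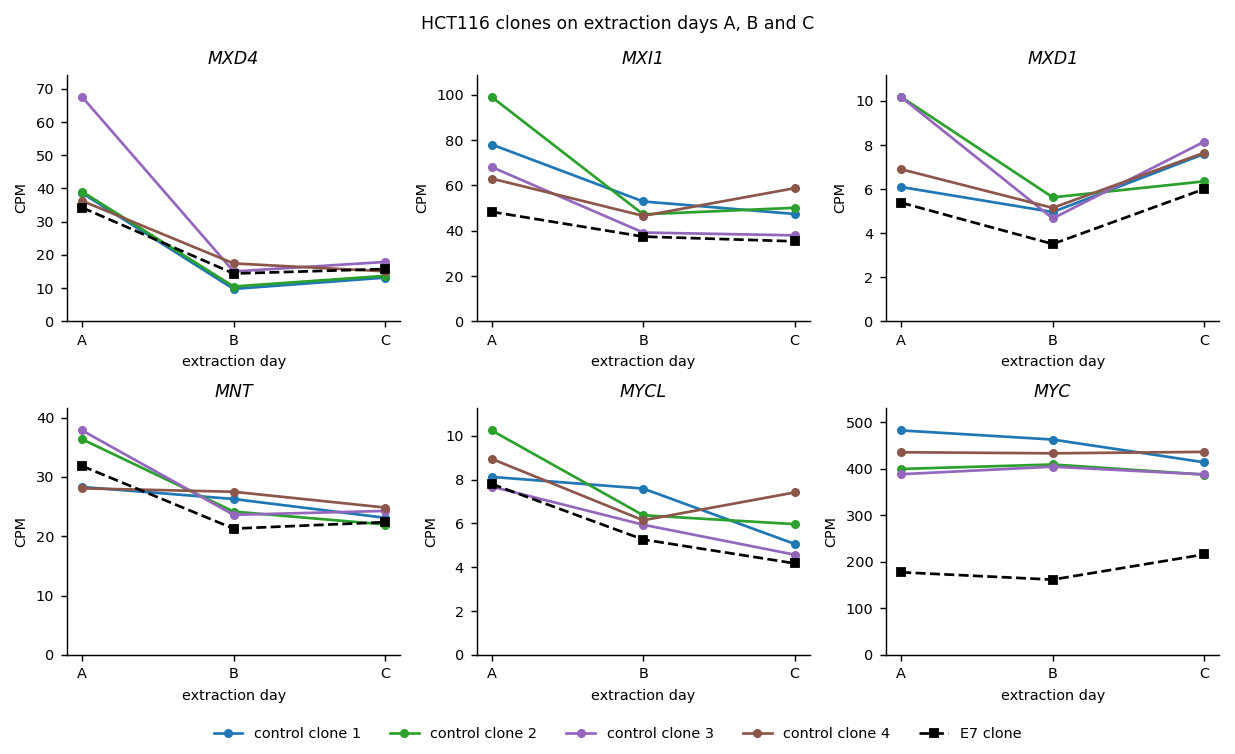
Lines follow the 4 control clones and the E7 clone (dashed) of HCT116 over extraction days A, B and C, with CPM from 0 on the vertical axis. MXD4 drops from 36.3 to 67.5 CPM on day A to 9.77 to 17.4 CPM on day B in the control clones, while MYC lies at 387 to 482 CPM in the control clones and at 162 to 216 CPM in the E7 clone.

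The share of reads assigned to no gene, a sign of RNA or library quality, was 7.78% to 11.7% of all reads in the tables of the day A controls, 8.59% to 10.5% on day B and 9.15% to 14.3% on day C. Of 7 tested colorectal markers, 1 rose and 2 fell from day A to B, HNF4A by 0.70. The part of both in these differences was not tested. Whether the E7 clone differed from the controls in its profile over days was tested as an interaction. No gene of 15767 passed (0%, edgeR; 436 at an unadjusted p under 0.05, 2 by DESeq2) and 0 of 9 network genes did (1 at an unadjusted p under 0.05, MYC at p = 0.00881, and 0 by DESeq2).

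Target genes moved between days while MYC mRNA did not pass. From day A to B, 23 of 35 MYC-induced targets rose and none fell, where 19.1% of all genes rose, with a median of 0.31 against -0.01 over all genes. MRTO4 and NOP56, of ribosome production, rose by 0.81 and 0.68, and ODC1 and SRM, of polyamine synthesis, by 0.74 and 0.70. Of 10 MYC-repressed targets 5 fell and none rose, with log2 changes of -0.95 for CDKN1A, the cell cycle inhibitor p21, -0.50 for CDKN2B, the inhibitor p15, -0.43 for GADD45A, a stress gene, and -0.41 for ITGA6. In the 4 control clones taken one by one, the median of the induced list ranged from 0.18 to 0.36 and that of the repressed list from -0.35 to -0.12. In that measure the median of all tested genes was itself below 0, at -0.13 to -0.01, and the repressed list lay below it in each clone. From day A to C, 19 of 35 induced targets rose and 1 fell (median 0.25), where 15.6% of all genes rose and 16.6% fell. Of 10 repressed targets 5 fell and 1, THBS1, rose.

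Lists of partners were counted in the same way, against 19.1% of all genes that rose and 19.4% that fell. Of 9 MGA partners in PRC1.6, 5 rose from day A to B, L3MBTL2 by 0.59, TFDP1 by 0.49, PCGF6 by 0.41 and CBX3 by 0.25, while MGA itself was at -0.16 (SE 0.13). Of 17 MYC cofactors 7 rose and 1 fell, with WDR5, which anchors MYC to chromatin, higher by 0.52 and HCFC1 by 0.49. Of 14 turnover genes 4 rose and 1 fell: AURKA and CIP2A, which stabilize MYC protein, by 0.78 and 0.53, USP36, a deubiquitinase, by 0.62 and SKP2, a ubiquitin ligase subunit, by 0.35. Of 10 regulators of MYC transcription 4 rose and 2 fell, with MAZ higher by 0.44 and CNBP, a nucleic acid binding protein, by 0.44. The share called among the turnover genes, 5 of 14, was no higher than that of all genes. MLXIPL, the glucose-responsive partner of MLX, fell by 0.38, and none of the SIN3 and HDAC genes passed.

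**Figure D4:**
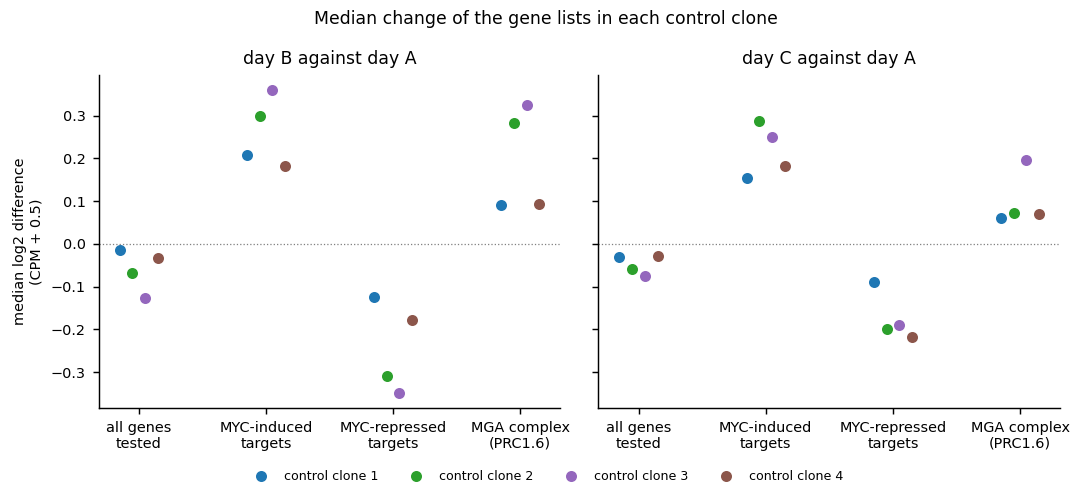
Points show, for each HCT116 control clone, the median log2 difference of CPM + 0.5 between day B or C and day A over all tested genes and 3 gene lists. The induced targets lie above 0 and the repressed targets below 0 in all 4 clones on both days, the induced list at 0.18 to 0.36 on day B. The median of all tested genes is also below 0, at -0.13 to -0.01 on day B.

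Control clones also differed from each other. With the day as a term, 7.80% of genes differed between clones, and MXD4 was the only one of 9 network genes to pass (edgeR adjusted p = 0.0364). Against the other 3 clones, clone 3 was higher in 4.35% of genes, MXD4 among them with 0.56 (SE 0.13, edgeR adjusted p = 0.0118). That value was 0.37 without day A (adjusted p = 0.0637) and 0.63 without day C (adjusted p = 0.107). MXI1 was lower in the same clone at -0.30 (SE 0.11, adjusted p = 0.124).

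Day D sampled control clones 1 and 2 again, at another extraction and greater depth. Of all genes 1.98% differed from the sums of days A to C, and 0 of 9 network genes did with edgeR (2 at an unadjusted p under 0.05, 0 by DESeq2). MYC had 468 and 504 CPM, where the libraries of these clones on days A to C ran from 387 to 482 CPM, with a log2 change of 0.26 (SE 0.11, edgeR adjusted p = 0.227). MXD4, at 22.3 and 17.6 CPM, lay between the days: its log2 change was -0.87 against day A, 1.02 against day B and 0.61 against day C, each past the threshold. MXI1, at 45.0 and 50.9 CPM, was lower than on day A by a log2 change of -0.78 (edgeR adjusted p = 2.86e-05).

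Counts of MYC per count of the 4 MXD genes (MXD1, MXD3, MXD4 and MXI1 together) put both sides of the network into 1 value per library. It is not scaled to gene length and serves only to compare libraries. In HCT116 controls it was 2.32 to 3.49 on day A, 4.71 to 5.39 on day B and 4.24 to 4.87 on day C. Day A was below the other days without overlap, as the MXD genes together took 125 to 172 CPM on day A and 79.6 to 103 CPM on days B and C. The E7 clone had 1.56, 1.83 and 2.89 on days A, B and C, below every control of the same day. The HEK293 controls had 0.355 and 0.733, and HEK293 E7 0.138 and 0.139, the lowest of the series.

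**Figure D5:**
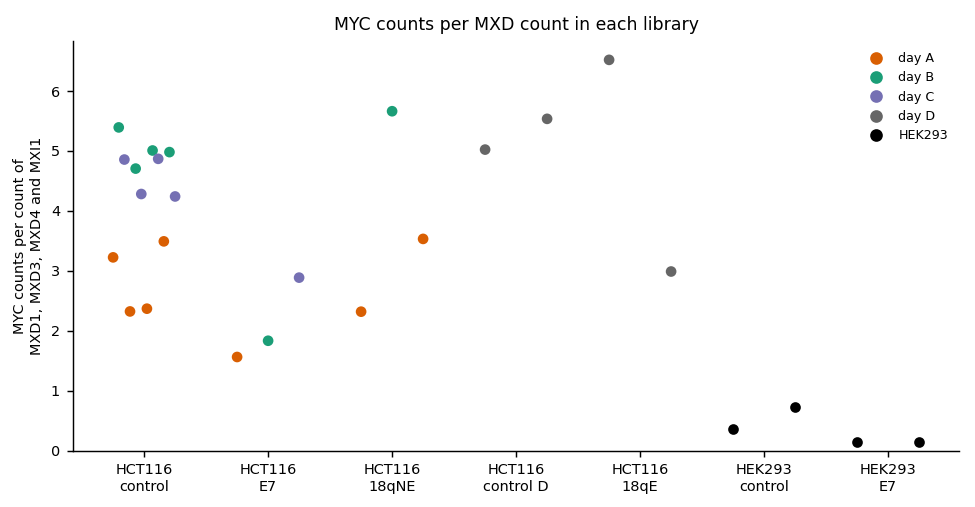
The vertical axis gives MYC counts per summed count of MXD1, MXD3, MXD4 and MXI1 from 0, with 1 point per library coloured by extraction day and groups on the horizontal axis. HCT116 control libraries of day A lie at 2.32 to 3.49, below those of days B and C, and HEK293 E7 lies at 0.138 and 0.139.

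Across the 22 HCT116 libraries, which share clones and extraction days and are not independent, Pearson's r of log2 CPM among the 5 genes that differed between days ran from 0.38 for MYCL with MXD1 to 0.85 for MYCL with MXI1. It was 0.78 for MXI1 with MNT, 0.73 for MXD4 with MNT and 0.44 for MXD1 with MXD4. The 5 genes were picked by day in control libraries that are among the 22, where the mean of each was highest on day A. Positive r among their pairs was therefore in part set by that choice and is no separate result. MYC, which did not pass between days, had r of 0.42 with MXI1 and 0.38 with MXD1, as high as the lowest of those pairs. MYC with MXD4 had r of -0.11 and MYC with MXD3 -0.51. Every r of MYC, here and below, includes the E7 libraries. Their MYC level was 162 to 216 CPM, where the other HCT116 libraries had at least 378 CPM. How far the E7 libraries set these values was not tested. The lowest value of all pairs was -0.55, for MXD3 with MGA. Among 10872 genes, those most like MYC were CYB5R2 (r = 0.95), TIMM17B (0.94) and EIF3H (0.94). Those most like MXD4 were NIPSNAP1 (0.94), LARP6 (0.93) and WDTC1 (0.93), and those most like MXI1 were HERC3 (0.92), F2R (0.89) and HECA (0.88). MXD1 was closest to SLC38A2, JUNB and PHF3 (0.88 to 0.84), MNT to PDCD4, MAOA and EIF4B (0.89 to 0.87) and MGA to SCN8A, BAZ2A and DSP (0.87 to 0.86). MAX and MXD3 had no gene above 0.78 and 0.74, their closest being GTPBP3, APTX and POLG2 for MAX and C3orf18, TMUB2 and TMEM60 for MXD3. MYCL was closest to FYN (0.87), MXI1 (0.85) and TRIM9 (0.84).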

How the data were processed

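Trizol RNA went into TruSeq libraries read from 1 end on a NextSeq500, per the labels' protocols. The values are raw counts per gene as the authors deposited them, 26 libraries without normalization. The submitters' processing notes name TopHat2, HTSeq 0.6.1, Partek 3 and hg19. No source used here gives the strand setting, so reads of antisense or overlapping genes (MAX with FNTB, MXD1 with ASPRV1, MXD3 with PRELID1, and antisense RNAs of MYCL and MAX) cannot be told apart. Symbols, gene order and promoters came from RefSeq tables of GRCh38.p14. The 6 ChIP samples were not analysed here.

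HCT116 libraries were summed per clone (E7 over days A to C, 18qNE against days A and B). edgeR 4.0.16 in R 4.3.3 (TMM, filterByExpr with a minimum count of 10, 2-sided) was the main test, tested on simulated data, and DESeq2 1.42.0 an alternative. Rows naming no gene stayed out of library totals. Adjusted p covers all tested genes. For E7 in HCT116, control and E7 libraries of 1 extraction day deviated together (r = 0.79, 0.59 and 0.61), the labels giving the shared day. Members and lists were chosen with earlier results of these data known. Besides the members, the text names up to 4 called genes per list with the largest change, and the 3 genes most correlated with each member over 22 libraries (mean of at least 5 CPM).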

Additional observations from a re-analysis of the deposited data

Results flagged for a closer look

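In 36 sets of 4 values from the HCT116 control clones (9 network genes on days A, B and C and summed), 2 sets held a clone far from the others. Chance gives about 1 such set in 20. Both concerned MXD4 in control clone 3: on day A it had 67.5 CPM where the other 3 clones had 36.3 to 39.0 CPM, and summed over days A to C it had 36.0 CPM where the others had 21.6 to 22.3 CPM. The second value contains the first.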

How the results depend on the processing

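The clone is the replicate, and 1 clone carries E7 in HCT116, so a clone's own traits and the deletion cannot be told apart. Low counts limit MYCL and MXD1. Of 909 values of single network genes under alternatives, 855 stayed on their side of the threshold, 14 lost and 37 gained a call, and 3 reversed: MGA between lines without HEK293 control 2 (0.25, and -1.14 without control 1), and MXD4 of day D against day B (1.02) or C (0.61) alone.

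With DESeq2 the genes (network genes) called were 2 network genes for E7 in HCT116, 13 genes for 18qNE, 18 for 18qE, 454 (1) for E7 in HEK293, 1183 (1) for the difference between lines and 2 for the day response. With no filter they were 2 network genes for E7 in HCT116, 16 genes for 18qNE, 1959 for clones, 1326 (1) for day D and 44 for the day response. With other references, E7 against 18qNE clones gave 79 (0), 18qE against days A to C 8, HEK293 against day D controls 3984, and day D against day A, B or C alone 2160 (2), 645 (1) or 1160 (1). Both HEK293 E7 libraries summed gave 71 (1).

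Leaving out 1 replicate at a time gave these ranges of genes (network genes): E7 in HCT116 1477 to 3087 (1 to 2), lowest without control clones 1 (1477) and 2 (1499); 18qNE 0 to 1 (0); 18qE 0 to 132 (0), 107 and 132 without 18qE clone 1 or 2; E7 in HEK293 74 to 6210 (1 to 6), with 1914 without control 2; the difference between lines 35 to 4701 (0 to 5); HEK293 against HCT116 5640 to 8641 (4 to 7); days 2228 to 6465 (2 to 6); clones 308 to 1694 (0 to 1), lowest without day C; and the day response 0 to 1 (0). The cause was not tested.

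Pairing by number or day: with the day as replicate block E7 in HCT116 gave 5178 genes (3 of the network), with the library number as block E7 in HEK293 670 (1), and with the clone number as block 18qNE and 18qE 0 (0). Deviations of same-numbered libraries correlated at 0.36 in HEK293, 0.09 in 18qE, and -0.26, -0.23 and 0.09 in 18qNE, so these numbers were not taken to pair clones. With a block MXD1 (-0.49) and MXI1 (-0.48) in HCT116 and MYC in HEK293 (-2.17) passed, and no other call of a network gene changed. The day block in HCT116 counts each library of a clone as a replicate, so its calls do not measure the spread between clones.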
